A study of Mus musculus with 6 samples.

Results

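The genes described here encode enzymes that break down the branched chain amino acids leucine, isoleucine and valine in mitochondria. They are Bcat2, Bckdha, Bckdhb, Dbt, Ivd, Mccc1, Mccc2, Hibch, Hibadh and Aldh6a1, 10 genes of the 21154 that the array names singly. They were chosen by name for their place in the pathway, with earlier results of these data known. Each was read by 1 transcript cluster (the array's gene-level probe set), so all 10 were measured and none was lost to a filter on dim signals. The cells were 3T3-L1, mouse fibroblast-like cells of an established line, which adipogenic hormones convert into adipocytes. The Tsuru group had an extract of Tsuruazuki added to an induction mixture of IBMX, insulin and dexamethasone. The Medium group had no extract, and its titles say only that the cells were maintained in medium, whereas the protocol describes a control that was induced as well. Both groups went to insulin medium at day 3 and were collected at day 9, with 3 arrays each. The labels name dilutions of a 100 mg/ml extract stock without saying which one the arrayed cells received. Whether the 3 samples of each group were cultured separately is not stated, and the p-values cover the spread among them alone, which could be technical.

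Breakdown starts with Bcat2, the mitochondrial aminotransferase, which moves the amino group to a keto acid partner. The branched chain ketoacid dehydrogenase complex then commits the carbon skeleton to oxidation, through an E1 enzyme made of Bckdha and Bckdhb, an E2 core made by Dbt, and an E3 subunit, Dld, that it shares with other complexes. The kinase Bckdk switches the complex off by phosphorylating E1 and the phosphatase Ppm1k switches it on. Beyond the complex the skeletons part ways: Ivd, Mccc1 and Mccc2 serve leucine, and Hibch, Hibadh and Aldh6a1 serve valine. Differentiating 3T3-L1 adipocytes are known to burn branched chain amino acids and to use their carbon for fat synthesis.

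Promoter sequences are shown for Aldh6a1, the member with the smallest p-value, for Bckdha, the member with the widest difference, and for the kinase and phosphatase genes that control the complex. They come from RefSeq on GRCm38.p6, run 5′ to 3′ from 250 bases before to 50 bases after the most upstream annotated start, and have every match to a searched motif in capitals. The motifs, searched on both strands, were the promoter box CCAAT, the promoter element GGGCGG known to bind Sp factors, the core promoter element TATAAA, the E-box form CACGTG, the nuclear receptor element AGGTCA and its spaced direct repeat AGGTCANAGGTCA, whose matches would overlap those of the element it repeats.
Aldh6a1, chr12:84450975-84451274, minus strand: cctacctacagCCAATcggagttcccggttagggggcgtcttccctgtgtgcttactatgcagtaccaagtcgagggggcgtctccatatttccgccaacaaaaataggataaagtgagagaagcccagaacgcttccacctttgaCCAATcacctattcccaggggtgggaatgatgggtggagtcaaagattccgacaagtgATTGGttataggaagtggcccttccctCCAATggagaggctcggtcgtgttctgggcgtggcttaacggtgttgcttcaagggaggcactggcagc
Bckdha, chr7:25658712-25659011, minus strand: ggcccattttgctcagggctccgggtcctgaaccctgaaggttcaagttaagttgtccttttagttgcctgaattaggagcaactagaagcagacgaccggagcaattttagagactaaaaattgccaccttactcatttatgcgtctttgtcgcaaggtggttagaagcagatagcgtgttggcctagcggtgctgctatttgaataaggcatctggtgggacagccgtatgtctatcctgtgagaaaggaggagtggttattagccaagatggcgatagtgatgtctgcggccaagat
Ppm1k, chr6:57535438-57535737, minus strand: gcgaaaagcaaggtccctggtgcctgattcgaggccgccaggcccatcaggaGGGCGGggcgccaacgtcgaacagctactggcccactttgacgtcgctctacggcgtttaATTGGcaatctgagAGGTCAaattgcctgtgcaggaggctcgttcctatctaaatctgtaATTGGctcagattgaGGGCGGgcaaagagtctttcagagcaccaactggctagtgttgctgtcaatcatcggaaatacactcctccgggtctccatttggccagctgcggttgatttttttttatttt
Bckdk, chr7:127903823-127904122, plus strand: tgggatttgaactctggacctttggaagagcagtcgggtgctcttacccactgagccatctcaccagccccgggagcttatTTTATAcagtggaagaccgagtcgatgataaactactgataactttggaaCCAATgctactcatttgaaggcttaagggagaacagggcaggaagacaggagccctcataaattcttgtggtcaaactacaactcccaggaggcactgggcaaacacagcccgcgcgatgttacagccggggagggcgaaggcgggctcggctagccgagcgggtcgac
The Aldh6a1 window held 4 CCAAT matches and none of the other motifs. That of Bckdha held no match to any of them. Ppm1k had 2 GGGCGG matches, 2 CCAAT matches and 1 AGGTCA, and Bckdk had 1 CCAAT and 1 TATAAA match. Of the 10 members 9 had a promoter entry, all but Dbt. CCAAT stood in 6 of these 9 windows, against 37.4% of all 32851 windows of 300 bases, and GGGCGG in 4 of 9, against 35.7%. AGGTCA stood in 2 of 9, against 16.3% of all windows, and CACGTG in 1 of 9, against 7.15%. TATAAA and the direct repeat were in none of the 9, against 13.6% and 0.0396% of all windows. These are letter matches in a short window and say nothing on binding.

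All 10 genes had a higher mean signal with Tsuru, by 0.15 for Mccc2 to 0.55 for Bckdha on the log2 scale, and their median difference was 0.30. None of the 10 passed limma's moderated test after Benjamini-Hochberg adjustment over 22206 clusters, where the lowest adjusted p among them was 0.352 for Aldh6a1. Across the array 0 clusters did (0% of those tested). The series' methods set a looser threshold, a fold above 1.1 with p under 0.05 before any adjustment, and at it Aldh6a1 alone was higher and none was lower. That is 1 of 10 members, where 11.1% of all clusters passed it, 5.75% higher and 5.38% lower. Clusters with a mean log2 signal between 6 and 13, the range that holds the members, leaned the same way: 64.6% of these 8861 clusters had a positive difference, with a median of 0.11, and 10.3% were higher at the methods' threshold. Over all clusters 50.6% were positive, with a median of 0.00. The share of members at the methods' threshold is thus near that of clusters of like signal, and their median of 0.30 stands beside 0.11.

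**Figure D1:**
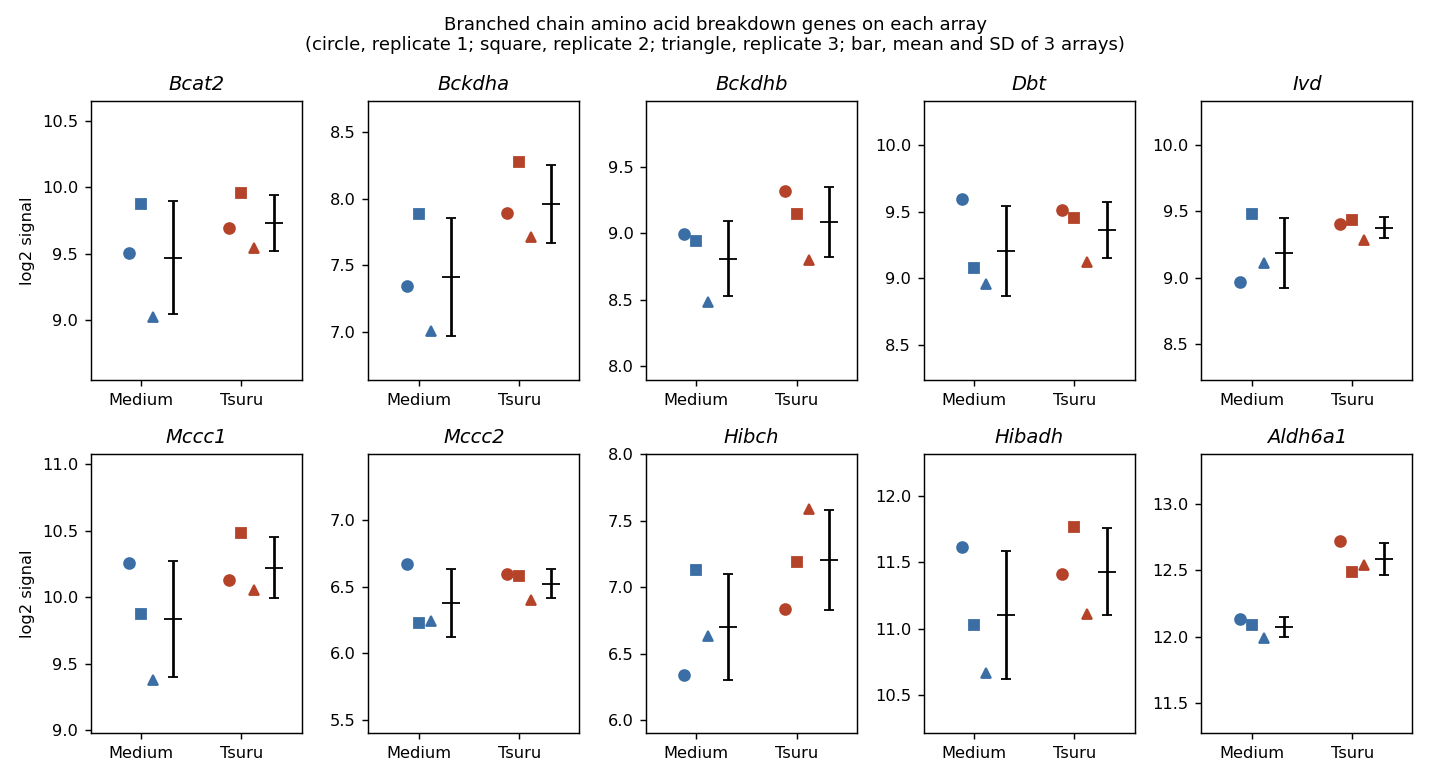
Log2 signal of each breakdown gene on the 3 Medium (blue) and 3 Tsuru (red) arrays, with symbols for the replicate number and a bar for the mean and SD of 3 arrays; every panel spans the same log2 range. The groups are apart for Aldh6a1 and overlap for the other 9 genes.

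Bcat2, the aminotransferase gene, read 9.69, 9.96 and 9.54 on Tsuru replicates 1 to 3 and 9.51, 9.88 and 9.03 on the Medium arrays in the same order. The groups overlapped, and the difference was 0.26 ± 0.23 (SE) on the log2 scale (limma, adjusted p = 0.696). With Medium replicate 3 left out it was 0.04. The cytosolic aminotransferase gene Bcat1, which is no member, differed by -0.06 ± 0.23.

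Bckdha, the E1 alpha gene and the site of control by phosphorylation, read 7.89, 8.28 and 7.71 with Tsuru against 7.35, 7.89 and 7.01 on the Medium arrays. Medium replicate 2 overlapped the Tsuru values, and the other Medium arrays lay below all of them. The difference was 0.55 ± 0.25 (SE), with a 95% interval that reached down to -0.0029 and an unadjusted p of 0.051 (limma, adjusted p = 0.452). In the authors' deposited table the same cluster passed the methods' threshold, with a fold of 1.57 and p = 0.0398. It was 1 of 2 members to do so, with Aldh6a1, where 6% of that table's clusters passed as higher. The group averages there were 7.97 and 7.31, where the arrays average 7.96 and 7.41.

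Bckdhb, the E1 beta gene, read 9.32, 9.14 and 8.80 with Tsuru and 9.00, 8.94 and 8.48 on the Medium arrays. Its difference was 0.28 ± 0.21 (SE), and 0.11 without Medium replicate 3. Dbt, the E2 gene, read 9.51, 9.45 and 9.12 with Tsuru and 9.59, 9.07 and 8.95 on the Medium arrays, so the highest value of all belonged to a Medium array. It differed by 0.15 ± 0.21 (SE), or by 0.02 after cyclic loess normalization. The E1 and E2 genes of the complex thus had overlapping groups throughout, and Dld, the shared E3 gene, stood at 0.03 ± 0.21, with its sign turned under another scaling.

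The leucine arm holds the member with the narrowest difference, Mccc2. Ivd, the isovaleryl-CoA dehydrogenase gene, read 9.40, 9.43 and 9.28 with Tsuru and 8.97, 9.48 and 9.11 on the Medium arrays, a difference of 0.19 ± 0.18 (SE). Mccc1, the biotin-carrying subunit of methylcrotonyl-CoA carboxylase, read 10.13, 10.48 and 10.06 against 10.26, 9.87 and 9.38. Medium replicate 1 lay among the Tsuru values and Medium replicate 3 far below them, so that the difference of 0.39 ± 0.24 (SE) became 0.60 without the first and 0.16 without the second. Mccc2, the other subunit of that enzyme, read 6.59, 6.58 and 6.40 against 6.67, 6.22 and 6.24 and differed by 0.15 ± 0.18 (SE). Its mean signal was above that of 68.0% of the array's 5222 negative control sets, the lowest share among the members. Its values thus lie close to background, and a change in it could be understated, which was not tested.

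The median difference of the valine arm was 0.51 over its 3 members, against 0.19 over the 3 of leucine, and single members of the arms crossed over, with Hibadh at 0.33 below Mccc1 at 0.39. Among other genes of the arms, Acad8 and Abat of valine stood at 0.30 and -0.32, and Auh and Oxct1 of leucine at 0.48 and 0.02. These genes did not share the order of the members' arms, and the contrast between the arms was not tested. Aldh6a1, methylmalonate semialdehyde dehydrogenase, makes propionyl-CoA from valine. It read 12.72, 12.49 and 12.54 with Tsuru and 12.14, 12.09 and 11.99 on the Medium arrays, so that all 3 Tsuru values lay above all 3 Medium values, as for 9.06% of all clusters (the reverse held for 7.75%) and for 14.8% of clusters of like signal (the reverse for 4.5%). The group means were 12.58 ± 0.12 (SD, n = 3) and 12.07 ± 0.07 (SD, n = 3). The difference was 0.51 ± 0.16 (SE), a fold of 1.42, with a 95% interval of 0.15 to 0.87 and an unadjusted p of 0.0098 in the limma fit (adjusted p = 0.352). It kept within 0.44 and 0.56 with any single array left out, and was past the methods' threshold each time. The authors' deposited table gave it a fold of 1.37 at p = 0.0195.

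Hibch, the hydrolase that frees hydroxyisobutyrate from coenzyme A, read 6.84, 7.19 and 7.59 with Tsuru and 6.34, 7.13 and 6.64 on the Medium arrays. Tsuru replicate 1 fell below Medium replicate 2, so the groups overlapped, and the difference was 0.51 ± 0.25 (SE; limma, unadjusted p = 0.073, adjusted p = 0.484). The fold in the authors' deposited table was lower, 1.14, where the arrays give 1.42. The mean signal of Hibch was above that of 76.2% of the negative control sets, the lowest share among the members after Mccc2. Hibadh, the dehydrogenase that acts between Hibch and Aldh6a1, read 11.41, 11.76 and 11.11 against 11.62, 11.02 and 10.67. It differed by 0.33 ± 0.26 (SE), or by 0.11 without Medium replicate 3 and 0.58 without Medium replicate 1.

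**Figure D2:**
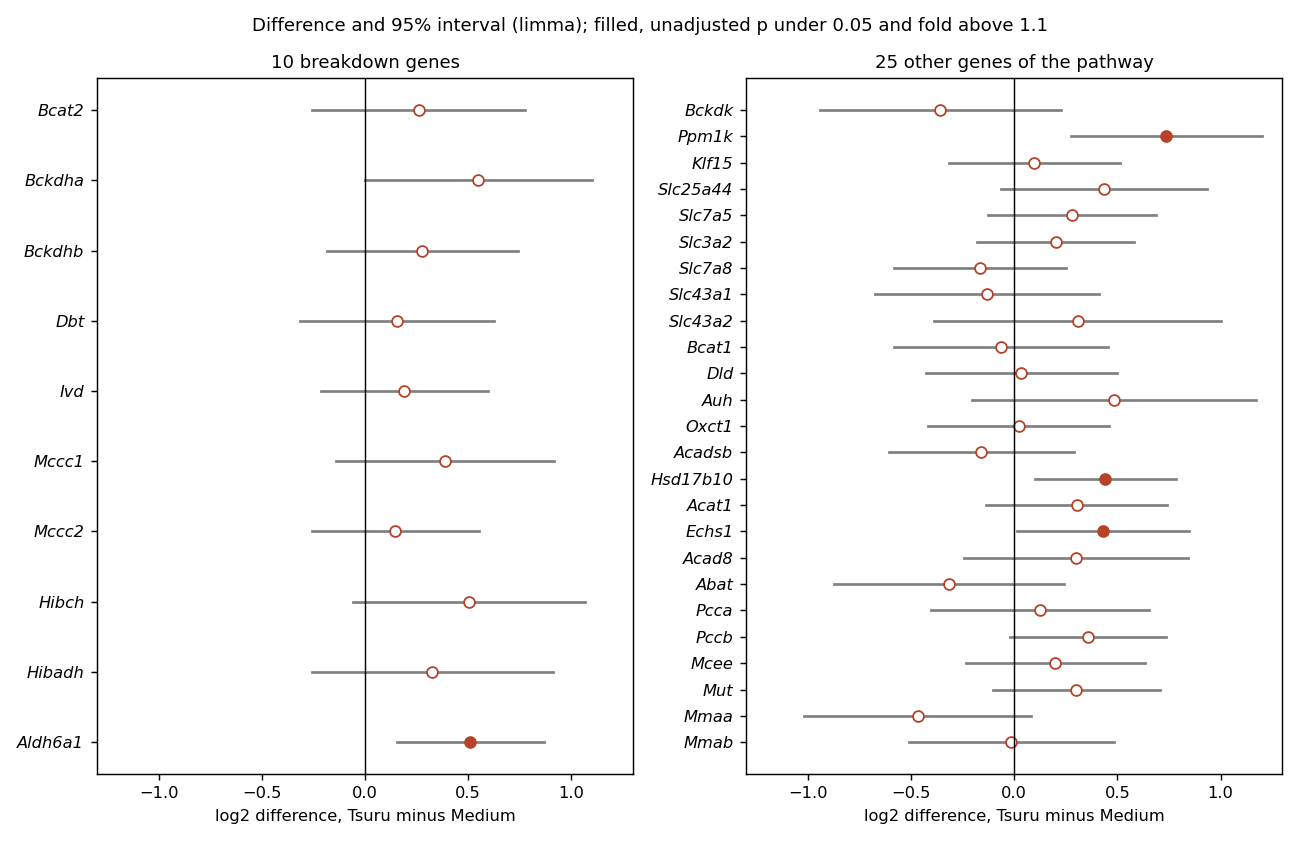
Log2 difference of Tsuru minus Medium with its 95% interval (limma, 6 arrays) for the 10 breakdown genes and for 25 of the 26 other genes of the pathway, its control and its transport; filled points passed an unadjusted p under 0.05 and a fold above 1.1. All 10 points on the left lie above 0 and the interval of Aldh6a1 alone excludes 0, while on the right 17 points lie above 0 and 8 below.

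The arrays on which the members were high or low were shared among them. Medium replicate 3 had the lowest reading of all 6 arrays for 7 of the 10 genes, and every member lay below its own 6-array mean there, by 0.43 on average. The members averaged -0.04 and -0.02 on Medium replicates 1 and 2, close to the 0.03 of Tsuru replicate 3, and 0.17 and 0.29 on Tsuru replicates 1 and 2. Within the Tsuru group, replicate 3 was the lowest for 8 of the 10. Clusters of like mean signal did not dip on Medium replicate 3, where they averaged 0.00. The 12 adipocyte markers did, at -0.38, and averaged 0.32, 0.10 and 0.02 on Tsuru replicates 1 to 3. Their part in the members' difference was not tested, and in bulk RNA fewer adipocytes and less RNA per adipocyte cannot be told apart. Without Medium replicate 3 the members' median difference was 0.13 and that of clusters of like signal 0.14. All 10 stayed positive in that fit, and Aldh6a1, at 0.47, and Hibch, at 0.47, kept the most of their differences.

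**Figure D3:**
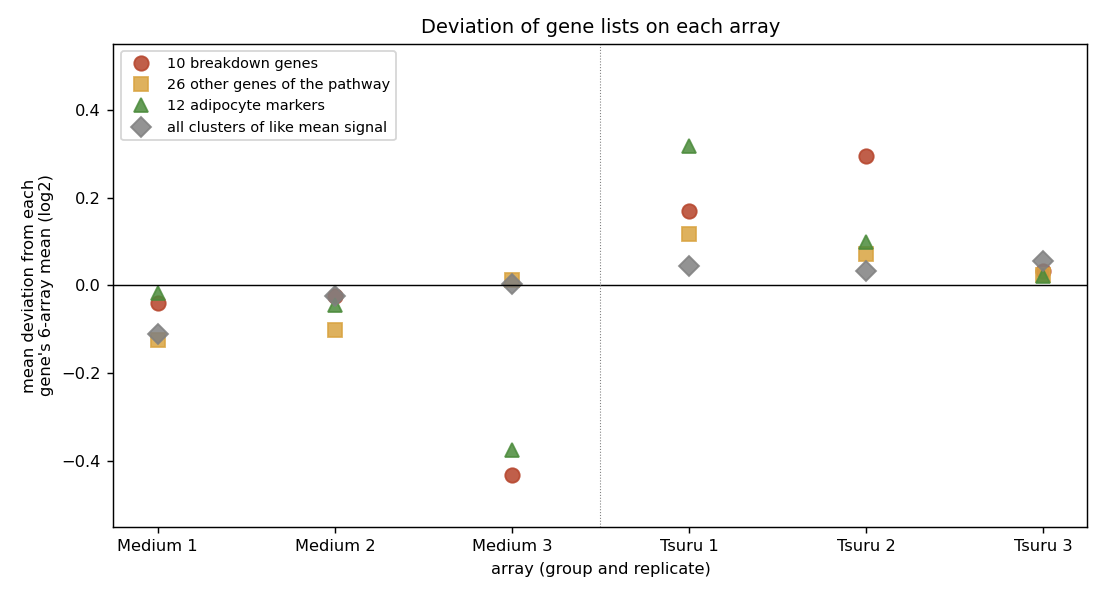
Mean deviation of 4 sets of clusters from each cluster's own 6-array mean, in log2 units, on each array. The breakdown genes (red) and the adipocyte markers (green) dip together on Medium replicate 3, to -0.43 and -0.38, where the other pathway genes and all clusters of like mean signal stay near 0.

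**Figure D4:**
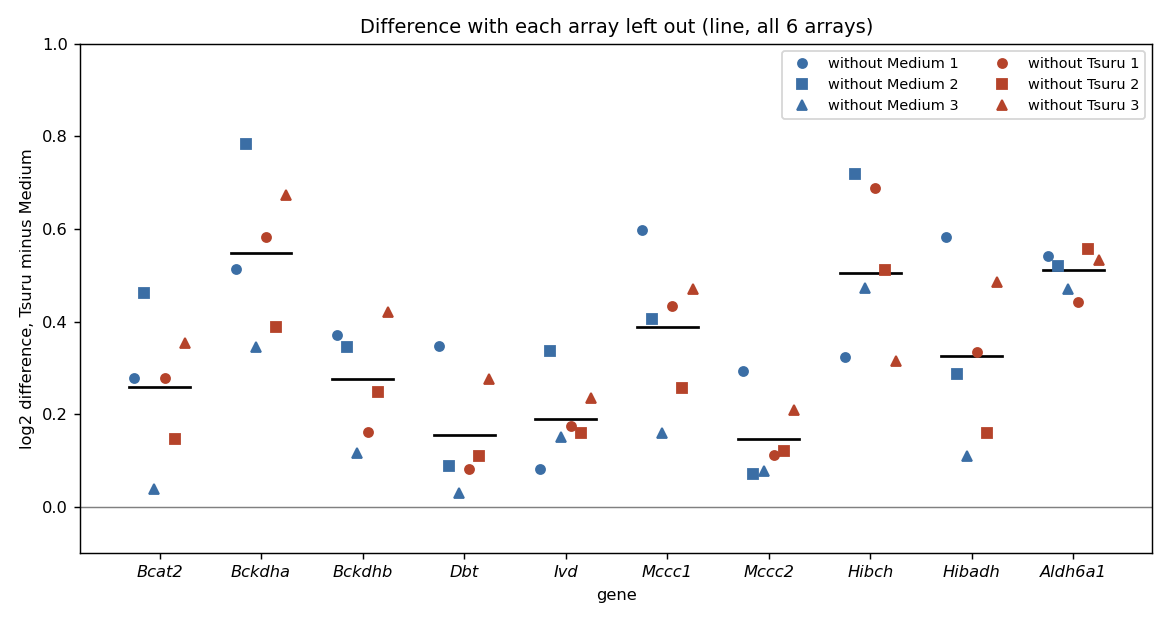
Log2 difference of each breakdown gene over all 6 arrays (line) and with each array left out in turn (points, blue for a Medium array and red for a Tsuru array). No point falls below 0; Aldh6a1 stays between 0.44 and 0.56, while Bcat2 runs from 0.04 to 0.46.

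Adipocyte and fibroblast transcripts were present in both groups. The summed signal of the 12 adipocyte markers ran from 19.32 to 19.63 on the log2 scale with Tsuru and from 19.06 to 19.36 on the Medium arrays. Plin1 and Cfd passed the methods' threshold higher, against 5.75% of all clusters and 10.3% of clusters within the members' range of signal. The list's median difference was 0.24, with 9 markers positive and 3 negative (Lep, Pparg and Slc2a4). On each array 1 marker (Lep) read below the mean of the negative control sets. Of 8 preadipocyte markers 7 were read, since Pdgfra shares its cluster with another gene, and their median difference was 0.02. Macrophage and endothelial markers were mostly dim, with 4 or 5 of 6 and 5 of 5 below the negative control mean. In each list 1 gene, Lyz2 and Cdh5, passed the methods' threshold lower, against 5.38% of all clusters. Interferon response genes were 2.56 above their means on Medium replicate 1, an array that also stood apart on the first principal component. The members averaged -0.04 there, and without that array their median difference was 0.36.

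Of the genes that control the complex, Ppm1k, the activating phosphatase gene whose promoter is shown above, read 6.87, 7.26 and 7.49 with Tsuru and 6.71, 6.26 and 6.44 on the Medium arrays, so the groups did not overlap. The difference was 0.74 ± 0.21 (SE), with an unadjusted p of 0.0054 in limma's test (adjusted p = 0.352). It passed the methods' threshold under all alternatives run, at 0.60 to 0.91 with an array left out. The authors' deposited table gave a smaller fold, 1.23, at p = 0.0408. The mean signal of Ppm1k was above that of 74.55% of the negative control sets. Bckdk, the inhibiting kinase gene, read 7.52, 6.90 and 7.65 with Tsuru and 7.31, 7.68 and 8.15 on the Medium arrays. These overlapped widely, and the difference was -0.36 ± 0.26 (SE), with a 95% interval from -0.94 to 0.22. It was -0.14 without Medium replicate 3, -0.13 without Tsuru replicate 2 and -0.56 without Medium replicate 1. Phosphatase and kinase means thus differed in opposite directions, the kinase did not pass the methods' threshold, and neither gene passed after adjustment. Klf15, a transcription factor that activates amino acid breakdown genes, had a mean signal above only 38.0% of the negative control sets and differed by 0.10 ± 0.19.

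Of the 26 other genes of the pathway 3 passed the methods' threshold higher and 0 lower, against 5.75% and 5.38% of all clusters. Among clusters within the members' range of signal 10.3% passed higher and 3.28% lower. Of the 26 genes 23 reach the lower end of that range, and Slc7a5, Slc3a2 and Oxct1 lie above its upper end. The median difference of the 26 was 0.20, and 18 were positive. Ppm1k, Hsd17b10, Echs1 and Pccb, 4 of the 26, had all 3 Tsuru values above all 3 Medium values, and 0 had the reverse. Over all clusters 9.06% and 7.75% did, and within the members' range of signal 14.8% and 4.5%. The share of the 26 with Tsuru above is thus near that of the range. Besides Ppm1k, those that passed were genes of the isoleucine arm. Hsd17b10, a mitochondrial dehydrogenase that oxidises the isoleucine skeleton, read 11.32, 11.40 and 11.33 with Tsuru and 10.84, 10.92 and 10.96 on the Medium arrays. Replicates lay close together in both groups and did not overlap, and the difference was 0.44 ± 0.15 (SE; limma, unadjusted p = 0.017, adjusted p = 0.374). Echs1, the short chain enoyl-CoA hydratase gene, which also serves valine and fatty acids, read 8.74, 8.56 and 8.19 against 8.18, 8.03 and 7.99. Its lowest Tsuru value lay just above the highest Medium value, and its difference of 0.43 ± 0.19 (SE) had an unadjusted p of 0.044. It no longer passed the methods' threshold after cyclic loess or quantile normalization, under a variance trend or without empirical Bayes moderation, nor without Medium replicate 2 or 3 or Tsuru replicate 1 or 2 (0.41, 0.39, 0.31 and 0.40). Hsd17b10 lost its call after cyclic loess and without Tsuru replicate 2, at 0.42. Acadsb, which acts before Echs1 on isoleucine, stood at -0.16 ± 0.20, and the thiolase gene Acat1 at 0.30 ± 0.20.

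Propionyl-CoA, the end product of valine and part of isoleucine, enters the citrate cycle through propionyl-CoA carboxylase and methylmalonyl-CoA mutase. Pccb, the carboxylase's beta subunit gene, had groups that did not overlap and a difference of 0.36 ± 0.17 (SE; limma, unadjusted p = 0.062). Pcca, its partner, differed by 0.12 ± 0.24, the epimerase gene Mcee by 0.20 ± 0.20 and the mutase gene Mut by 0.30 ± 0.18. Mmaa, which guards the mutase's cobalamin cofactor, had the lowest difference of the list, -0.47 ± 0.25, and Mmab, of the same cofactor route, stood at -0.01 ± 0.22. In the leucine arm the hydratase gene Auh differed by 0.48 ± 0.31 and the ketone body transferase gene Oxct1 by 0.02 ± 0.20. Acad8, of valine, stood at 0.30 ± 0.24 and Abat at -0.32 ± 0.25. None of these passed the methods' threshold in the main limma fit of all 6 arrays. Pccb passed it with array medians subtracted, without empirical Bayes moderation and without Tsuru replicate 2. Mmaa passed it lower with replicates paired by number and without Medium replicate 2. Acad8 passed higher and Abat lower without Medium replicate 3, and Auh passed higher without Tsuru replicate 3. Oxct1 and Mmab, like Bcat1 and Dld, had differences that turned sign under another scaling.

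Carriers were not called in the main limma fit of all 6 arrays either. Slc25a44, which brings branched chain amino acids into mitochondria, read 9.81, 9.48 and 10.26 with Tsuru and 9.26, 9.33 and 9.66 on the Medium arrays, a difference of 0.43 ± 0.22 (SE; limma, unadjusted p = 0.081). It passed the methods' threshold with replicates paired by number, without Medium replicate 3, at 0.55, and without Tsuru replicate 2, at 0.62. The plasma membrane carrier chains Slc7a5 and Slc3a2 differed by 0.28 ± 0.18 and 0.20 ± 0.17, Slc43a1 by -0.13 ± 0.24 and Slc7a8 by -0.17 ± 0.19. Slc43a2, another carrier of large neutral amino acids, differed by 0.31 ± 0.31, which became 0.73 and passed the threshold without Medium replicate 3 and became 0.03 without Medium replicate 1.

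The genes whose profile over the 6 arrays was most like the mean profile of the members were Rmi1, Naaa, Tgfbr1, Fndc3a and Nid2, with Pearson correlations from 0.98 for Nid2 to 0.99 for Rmi1. Tgfbr1 encodes a TGF-beta receptor, Nid2 a basement membrane protein, Naaa an amidase of fatty acid amides and Rmi1 a genome stability factor. This is a ranking of 6174 genes with a mean log2 signal of at least 8, of which 106 correlated above 0.9, on 6 arrays that also share their treatment. It is given as a description.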

How the data were processed

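Total RNA was hybridised to 6 Clariom S mouse arrays, 3 per group, and groups and replicate numbers came from the sample titles. Signals were deposited as log2 values, for which the authors ran SST-RMA in version 4.0.2 of the Transcriptome Analysis Console, per the series design text. RMA and version 4 of that software are in the submitters' processing notes. Of 28846 probe sets 6640 control sets were left out, which leaves 22206 clusters, of which 21367 carry 1 symbol. The authors' deposited table gives group averages in log2, a signed linear fold, and p-values (one-way ANOVA, then empirical Bayes), per the file headers and the series design text. Its folds had the sign of those computed here for 82.2% of clusters and for all 10 members. Its averages differ from those of the arrays, and the cause was not tested. For the array's genome build, the sources used here name none.

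Tsuru was set against Medium cluster by cluster in limma 3.58.1 (R 4.3.3), using lmFit and an eBayes step that assumes no trend. The Benjamini-Hochberg adjustment covers all clusters, dim ones included. Errors of differences are moderated standard errors. The fit was run on simulated data with independent noise, as a check of the code. Recovery of changes as small as those of the members is not reported here. Array number limits the precision: the median standard error over the members was 0.22. Over all clusters, same-numbered arrays of the groups deviated together little (correlations of 0.00, 0.01 and 0.19), so the fit has no block. Among the members, replicate 3 was the lowest of its group for 8 of the 10 with Tsuru and for 7 on the Medium arrays. Other scalings were tried on the SST-RMA output. The comparison with clusters of like mean signal was added after the data were seen. The members and gene lists were chosen with earlier results of these data known. The text names all 10 members, genes of the pathway list of 26, markers beside a member's result, and the 5 most alike genes. The pathway list's counts and medians include 1 gene whose own values are not reported here.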

Additional observations from a re-analysis of the deposited data

How the results depend on the processing

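The 10 members' differences kept their direction in the 100 refits of a single gene that could move the value (60 with an array left out), and no adjusted p in any of their 140 refits fell below 0.05, the lowest being 0.245. Their median ran from 0.17 to 0.38 under other processing and from 0.13 to 0.39 with an array left out. The lowest, 0.13 without Medium replicate 3, lies beside 0.14 for clusters of like signal. That comparison group had a median of 0.11 as deposited, 0.00 after cyclic loess, 0.02 after quantile normalization and 0.19 with array medians subtracted, where the members stood at 0.17, 0.18 and 0.38. Members past the methods' threshold numbered 1 as deposited, 3 with array medians subtracted, 3 with the replicate block, and 1 to 3 with an array left out. The additional calls were Bckdha and Hibch with array medians subtracted, with the block and without Medium replicate 2, Mccc1 and Hibadh without Medium replicate 1, Hibch without Tsuru replicate 1 and Bckdha without Tsuru replicate 3. Of the 26 other pathway genes 3 passed as deposited, 1 after cyclic loess, 5 with the replicate block, and 2 to 6 with an array left out, the 6 without Medium replicate 3. These counts take in 1 lower call each with the block and without Medium replicate 2 (Mmaa, -0.47 and -0.63) and without Medium replicate 3 (Abat, -0.61). Leaving out 1 array turned the sign of Bcat1, Dld, Klf15, Oxct1, Pcca, Mmab and Slc43a1. The block moved the count of clusters at that threshold from 2472 to 2775. Over all clusters the check of deviations gives no ground for pairing by number: 1 of 3 pairs exceeded 0.1, and not every array correlated best with its own number. For most members replicate 3 was the lowest of its group in either group, and pairing over the members alone was not tested. Leaving out an array gave 1659 to 3616 clusters, and restricting the fit to a mean log2 of at least 6 gave 1309, from fewer clusters tested. At an adjusted p under 0.05 there were 0 to 25 clusters with an array left out, the 25 without Medium replicate 3 and no member among them. Calls split into 1277 higher and 1195 lower as deposited, and 2026 and 766 with array medians subtracted. Each member and pathway gene has 1 cluster, so averaging clusters changes nothing. Among the members, signal near background limits Mccc2 most and Hibch next. Bckdha, the member with the widest difference, follows, with a mean signal above that of 85.4% of the negative control sets. Bckdhb, Dbt and Ivd come after it, at 93.6%, 94.8% and 94.8%.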
